A study of Mus musculus with 12 samples.

Results

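The genes described here encode the subunits of the mitochondrial respiratory chain and ATP synthase that lie in the nuclear genome, with the complex I assembly factors that share their names. Members were the protein-coding genes whose symbol begins with Nduf, Uqcr or Atp5 or names a subunit of succinate dehydrogenase, a Cox4 to Cox8 subunit of cytochrome oxidase or cytochrome c1. Of 105 matching symbols, 11 pseudogenes and gene models without a coding label were left out, which gave 94 members among 41388 annotated genes. Complex I contributed 44 members (7 core subunits, 29 supernumerary subunits and 8 assembly factors), complex II 4, complex III 9, complex IV 20 and complex V 17. Ndufa4 and Ndufa4l2 were counted with complex IV, where their proteins reside despite their names.

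Bone marrow cells of C57BL/6 mice were cultured and sequenced as 12 libraries, 3 in each of 4 groups. The flox groups carried a floxed allele of Asxl2, a chromatin regulator of the Polycomb group. The groups called KO were labelled ASXL2LysM, after the Cre recombinase driven by the lysozyme 2 (LysM) promoter of myeloid cells. All cells grew for 5 days in alpha MEM with serum, were replated, and received 2% M-CSF for 2 days, either alone (flox_BMM and KO_BMM, bone marrow macrophages) or with 50 ng/ml RANKL, the cytokine of osteoclast formation (flox_OC and KO_OC, osteoclasts). The labels do not say whether the flox mice carried Cre, how old the mice were or of which sex, or whether replicates came from separate animals. The p-values therefore rest on a spread between libraries that may be technical.

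Libraries held 18489873 to 21667237 counts, and levels are given as library-scaled counts (CPM, with TMM factors) unless TPM is named. Asxl2 lay between 71.0 and 95.6 CPM in the 6 flox libraries and between 12.7 and 15.4 CPM in the 6 KO libraries. The summed level of 10 macrophage markers was 32312 to 33265 CPM in flox_BMM, 28567 to 29307 CPM in KO_BMM, 15653 to 16065 CPM in flox_OC and 16584 to 16817 CPM in KO_OC. The 10 osteoclast markers summed to 234 to 243 CPM, 206 to 210 CPM, 743 to 765 CPM and 379 to 396 CPM in the same order. The macrophage markers include Lyz2, the gene whose promoter drives the Cre, and its part in these sums was not tested. In KO_BMM 2 of the 10 macrophage markers were higher and 8 lower (edgeR, adjusted p under 0.05), where 19.3% and 20.6% of all genes tested were. The OC groups still held many macrophage transcripts. In bulk RNA fewer cells of a type and less RNA per cell cannot be told apart.

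The respiratory chain passes electrons from NADH through complex I, and from succinate through complex II, to ubiquinone, then through complex III and cytochrome c to complex IV, which reduces oxygen. Complexes I, III and IV pump protons across the inner membrane, and complex V, the ATP synthase, uses the gradient to make ATP. Most subunits are encoded in the nucleus and a few in mitochondrial DNA, so each complex except complex II is assembled from the products of both genomes. Osteoclasts are known for abundant mitochondria, and NRF1, the ETS factor GABP, YY1, Sp1 and the estrogen-related receptors (ERR) are textbook regulators of these genes.

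The promoters of 76 of the 94 members were found in the RefSeq promoter table (GRCm38.p6, 250 bases before to 50 after each gene's start), and both strands were searched for 5 exact letter strings. The NRF1 string, shown in capitals in the NRF1 matches printed here and with any base at its variable position, was present in the windows of 19 members (25%) and of 5.19% of all 27025 genes with a window. The YY1 string was present in 5 members (6.58%) against 0.755% of all genes. The ERR string TCAAGGTCA was present in 2 members, Atp5g3 and Sdhd (2.63%), against 0.466%. For the ETS string CCGGAAGT (5 members, 6.58%, against 4.31%) and the Sp1 string GGGGCGGGG (13 members, 17.1%, against 12.9%) the shares lay closer together. At least 1 string was found in 37 members (48.7%) and in 20.7% of all genes. The genes with a window were not limited to those expressed in these cells, nor matched to the members in base composition. A match describes letters in a window, not a bound site.

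The following RefSeq sequences show the 150 bases just before the start of 4 members, on the gene's strand from 5′ to 3′, with the matched string in capitals. Ndufaf4 had the largest rise with RANKL among the members and an NRF1 string, and Atp5g3 an ERR string read on the other strand. Ndufa3 had an Sp1 string and a call as lower with RANKL in KO cells. Uqcr10 had the largest called difference of RANKL effects (KO minus flox) and none of the strings.
Ndufaf4, chr4:24897933-24898082, plus strand: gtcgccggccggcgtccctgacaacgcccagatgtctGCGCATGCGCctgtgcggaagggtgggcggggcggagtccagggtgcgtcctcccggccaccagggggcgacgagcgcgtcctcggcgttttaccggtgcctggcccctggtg
Atp5g3, chr2:73911327-73911476, minus strand: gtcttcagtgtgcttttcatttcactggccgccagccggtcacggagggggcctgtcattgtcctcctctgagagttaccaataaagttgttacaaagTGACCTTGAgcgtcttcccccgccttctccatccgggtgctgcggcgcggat
Ndufa3, chr7:3617223-3617372, plus strand: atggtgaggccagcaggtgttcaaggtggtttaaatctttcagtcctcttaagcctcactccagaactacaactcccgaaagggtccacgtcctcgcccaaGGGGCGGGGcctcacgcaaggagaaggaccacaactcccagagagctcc
Uqcr10, chr11:4704345-4704494, minus strand: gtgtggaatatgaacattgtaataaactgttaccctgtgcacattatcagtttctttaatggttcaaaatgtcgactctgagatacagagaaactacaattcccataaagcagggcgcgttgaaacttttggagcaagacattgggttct

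The NRF1 string recurred within single promoters. Sdha, the flavoprotein of complex II, held 3 copies, at bases -98, -55 and -10 from its start. They are printed with the RefSeq letters around them (GRCm38.p6, minus strand, match in capitals).
Sdha, chr13:74350319-74350348: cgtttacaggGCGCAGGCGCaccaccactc
Sdha, chr13:74350276-74350305: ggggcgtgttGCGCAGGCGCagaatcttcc
Sdha, chr13:74350231-74350260: gcgactcggtGCGCAAGCGCagtctgtcgc
Cox6a1 held 2 copies (minus strand), and Sdhd 1 (minus strand), which show the variable middle base of the string.
Cox6a1, chr5:115349101-115349130: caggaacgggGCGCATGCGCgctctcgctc
Cox6a1, chr5:115349056-115349085: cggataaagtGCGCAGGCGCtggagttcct
Sdhd, chr9:50603909-50603938: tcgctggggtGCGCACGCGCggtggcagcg

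Of the 94 members, 89 passed the low-count filter and were tested. The other 5 were tissue-restricted paralogs: Cox7b2, Cox8b and Cox8c had no count in any library, which allows at most 0.138 to 0.162 CPM in 1 library, Ndufa4l2 had 4 counts in all and Cox4i2 had 47. Per exonic length, the mean level over the 12 libraries ran from 3.14 TPM for Cox6b2 to 960 TPM for Cox6b1, with a median of 155 TPM. Within complex IV the widely expressed isoform stood above its tissue-restricted partner: Cox6a1 stood at 859 TPM and Cox6a2, the heart and muscle isoform, at 6.38 TPM, while Cox7a2 stood at 292 TPM and Cox7a1 at 15.0 TPM. Cox8a stood at 957 TPM.

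The 4 subunits of complex II lay closest together, from 128 TPM for the membrane anchor Sdhc to 283 TPM for the other anchor, Sdhd, a ratio of 2.22. Complex I ran from 3.92 TPM for Ndufb2 to 372 TPM for Ndufa2, complex III from 88.5 TPM for Uqcrb to 481 TPM for Uqcr10, and complex V from 3.75 TPM for Atp5g2 to 908 TPM for Atp5a1, the alpha subunit of the catalytic head. The lowest levels need care, because TPM divides by all annotated exonic bases and because 24 members shared at least 10% of their 50-base words with other genes. Atp5l shared 84.8%, Atp5o 47.6%, Uqcrb 43.4% and Atp5g2 38.3%. How reads that align to several places were treated is not given, so these may be undercounted or overcounted. A further measure, exon overlap with another gene of at least 10%, applied to 8 members, among them Atp5o (44.0%, with Donson), Ndufb6 (39.0%, with Smim27) and Cox5a (38.7%), whose reads cannot be told from their neighbours' without strand.

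**Figure D1:**
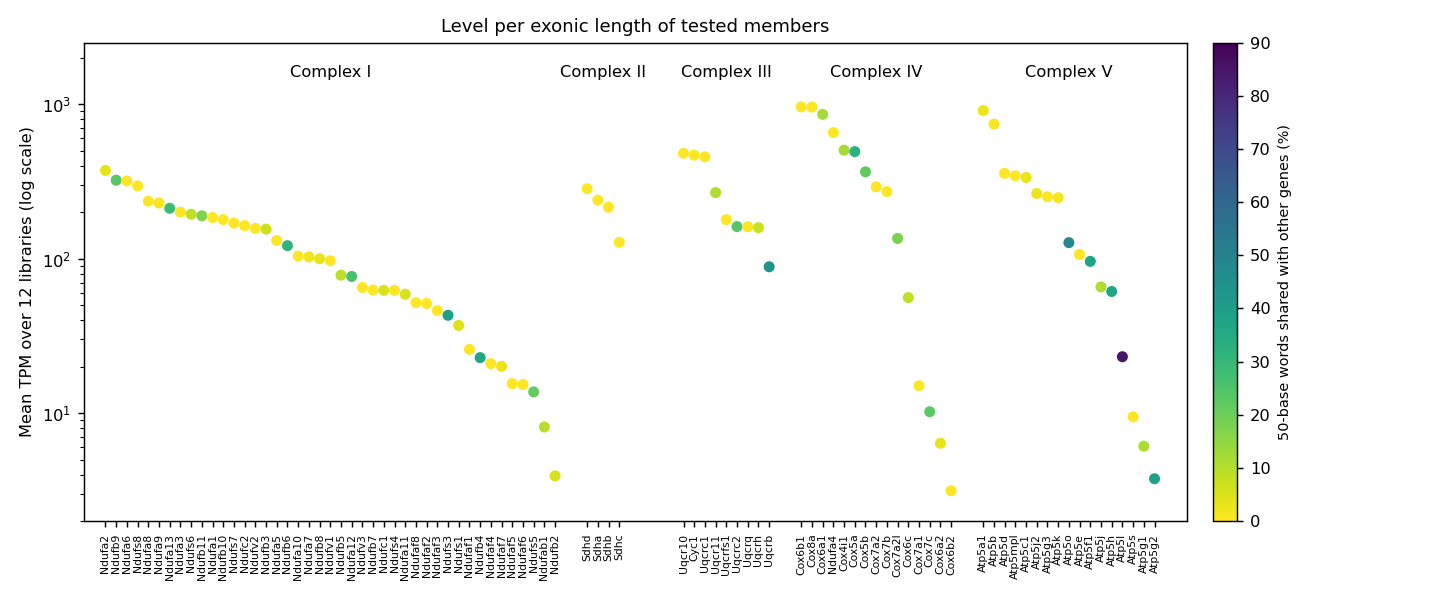
Mean TPM over the 12 libraries (log scale) of tested members, ordered within each complex, with colour giving the percentage of 50-base words shared with other genes. Complex II spans 128 to 283 TPM, complex IV 3.14 to 960 TPM, and Atp5l is the member with the most shared words.

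RANKL against M-CSF alone was compared first in flox cells, the osteoclast response of the control genotype. In flox cells 66 of 89 tested members rose with RANKL and 5 fell, where 37.0% of all 13030 genes tested rose and 37.8% fell (74.8% in either direction). The median log2 fold change was 0.21 over the members and 0.00 over all genes tested. The shares of the members were 74.2% and 5.62%. In 63 members all 3 flox_OC libraries lay above all 3 flox_BMM libraries (37.3% of all genes), and in 4 all lay below (37.9%). The call of 56 of the 66 held in each of the 12 fits that left out 1 library. With library size alone in place of TMM factors, the median of all genes was 0.16 and that of the members 0.38.

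Complex I assembly factors rose most. All but Ndufaf8 of the 8 passed, with a median log2 fold change of 0.45. Ndufaf4, a factor needed to build complex I, stood at 13.4, 13.4 and 13.1 CPM in flox_BMM and at 40.1, 41.5 and 43.2 CPM in flox_OC, a log2 fold change of 1.64 (SE 0.063, adjusted p = 4.04e-28). No value of the 2 groups overlapped. Ndufaf6 followed with 0.68 (SE 0.120, adjusted p = 1.76e-06), from 3.86 to 5.39 CPM in flox_BMM to between 6.81 and 8.20 CPM in flox_OC. Ndufaf5 rose by 0.60 and Ndufaf2 by 0.56.

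All 7 core subunits of complex I, those that carry the flavin and iron-sulfur clusters, rose (median 0.26). Ndufv1, which binds NADH, stood at 68.6, 66.8 and 66.1 CPM in flox_BMM and 88.5, 87.7 and 84.7 CPM in flox_OC (log2 fold change 0.37, SE 0.037, adjusted p = 1.09e-12). Of the 29 supernumerary subunits 17 rose and 3 fell, and the largest rise was that of Ndufab1, the mitochondrial acyl carrier protein, at 14.0 to 17.8 CPM in flox_BMM and 22.6 to 24 CPM in flox_OC (0.55, SE 0.070, adjusted p = 1.53e-09). Ndufb3 and Ndufb10 each rose by 0.46.

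In complex II the rise was carried by Sdhd, with 99.3 to 104 CPM in flox_BMM and 132 to 133 CPM in flox_OC (0.39, SE 0.033, adjusted p = 9.39e-15). Sdhb, the iron-sulfur subunit, and Sdhc passed at 0.09 and 0.07; the Sdhb call was lost without flox_BMM replicate 2 or flox_OC replicate 3, and that of Sdhc in 10 of the 12 fits that left out 1 library. Sdha did not pass at 0.05 (adjusted p = 0.0957). Log2 fold changes within this one enzyme thus ran from 0.05 to 0.39.

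Every one of the 9 members of complex III rose, with a median of 0.36. Cyc1, which hands electrons to cytochrome c, stood at 140, 136 and 124 CPM in flox_BMM and 231, 220 and 232 CPM in flox_OC (0.77, SE 0.034, adjusted p = 1.66e-25). Uqcrc2, a core protein, rose by 0.51 and Uqcrfs1, the Rieske iron-sulfur protein, by 0.46. The smallest of the 9 was Uqcrh at 0.13, whose call was lost without flox_OC replicate 1 or 3.

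In complex IV 9 of 15 tested members rose and 2 fell, with a median of 0.10, and in complex V 14 of 17 rose, with a median of 0.25. The largest rises in complex IV were those of Cox5a (0.35), Cox7b (0.32) and Cox8a (0.21). In complex V, Atp5b, the catalytic beta subunit, stood at 848, 802 and 788 CPM in flox_BMM and 1213, 1180 and 1212 CPM in flox_OC (0.57, SE 0.027, adjusted p = 2.31e-24). The 3 genes that encode the same c-ring subunit all rose: Atp5g1 by 0.83 (7.01 to 8.05 CPM against 12.9 to 14.1 CPM), Atp5g2 by 0.69 from 1.64 to 1.79 CPM, and Atp5g3 by 0.48 (145 to 153 CPM against 200 to 212 CPM). Per length Atp5g3 was the most abundant of the 3, with a mean of 251 TPM against 6.10 TPM for Atp5g1, and it had the smallest of the 3 fold changes.

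**Figure D2:**
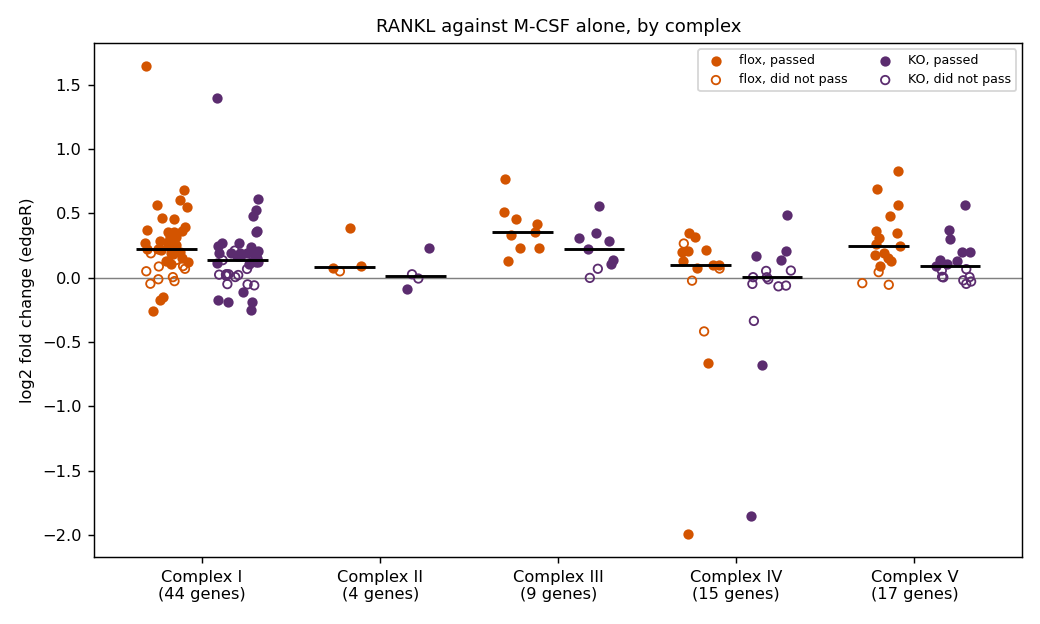
Log2 fold change of each tested member with RANKL against M-CSF alone, by complex, for flox (orange) and KO (purple); filled points passed the test, open points did not, and bars are medians. Ndufaf4 is the highest point in both genotypes (1.64 and 1.4), Cox6a2 the lowest (-1.99 and -1.85), and each KO median lies below its flox median.

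The 5 members that fell in flox cells were Cox6a2, Cox7a1, Ndufa1, Ndufv3 and Ndufa13. Cox6a2 stood at 1.81, 1.70 and 2.24 CPM in flox_BMM and 0.361, 0.593 and 0.487 CPM in flox_OC (-1.99, SE 0.277, adjusted p = 1.18e-08), a low level in both. Cox7a1, the other muscle isoform, fell by 0.66 from 1.18 to 2.50 CPM to between 1.17 and 1.43 CPM; the groups overlapped, and the call was lost without flox_BMM replicate 1 or 2 or flox_OC replicate 1. Of the more abundant subunits, Ndufa1 gave -0.26, Ndufv3 -0.18 and Ndufa13 -0.15 with TMM factors. With library size alone none of these 3 passed, and Ndufa13 turned to 0.02. Ndufa13 also shared 30.2% of its exonic bases with Tssk6.

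In KO cells the same comparison gave 45 members that rose and 8 that fell, where 35.5% and 35.0% of all genes tested did (70.5% in either direction), and a median of 0.11 against 0.00 over all genes. No library is shared with the flox comparison. Of the members, 44 rose in both genotypes, and 21 passed as higher in flox and were not called in KO. Sdhb, 1 member, passed as higher in flox and lower in KO, and 1, Cox7c, passed as higher in KO only. The shares of all genes with these joint patterns were not computed. Whether the effects differ between genotypes is a separate test, given after these counts. Libraries did not overlap for 49 members with RANKL higher (36.9% of all genes) and 13 with RANKL lower (36.5%). The median was 0.25 with library size alone, where that of all genes was 0.14.

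The order of the medians in KO cells was that of flox cells apart from complexes II and IV. The assembly factors had a median of 0.42, complex III 0.22, the core of complex I 0.17, complex V 0.09, complex II 0.01 and complex IV 0.00. Ndufaf4 stood at 15.8, 13.0 and 12.9 CPM in KO_BMM and 35.5, 37.4 and 36.5 CPM in KO_OC (1.4, SE 0.063, adjusted p = 4.26e-25). Cyc1 rose by 0.56, from 149 to 151 CPM to between 219 and 221 CPM, and Atp5b by 0.37, from 917 to 926 CPM to between 1182 and 1199 CPM. Uqcrc2 rose by 0.29, Ndufab1 by 0.35 and Atp5g1 by 0.57.

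The 8 members that fell in KO cells were Cox6a2 (-1.85), Cox7a1 (-0.68), Ndufv3 (-0.25), Ndufa1 (-0.19), Ndufb11 (-0.19), Ndufa13 (-0.17), Ndufa3 (-0.11) and Sdhb (-0.09). With library size alone only Cox6a2, Cox7a1 and Ndufv3 still passed as lower, and Sdhb turned to 0.04 and Ndufa3 to 0.02. The Cox7a1 call was lost without KO_OC replicate 3, as was that of Ndufa3. Sdhb was thus called higher in flox and lower in KO, each by less than 0.1 on the log2 scale.

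The difference between the RANKL effects, KO minus flox, was tested as an interaction. In edgeR it passed as lower in KO for 27 members and as higher for 0, where 9.54% of all genes tested were lower and 12.3% higher (21.9% in either direction). At an unadjusted p under 0.05 the higher count was also 0, in edgeR and in DESeq2. The median was -0.11 over the members and 0.01 over all genes. In DESeq2 18 members passed as lower. In edgeR the count was 43 when flox_BMM replicate 1 was left out and between 19 and 43 over the 12 such fits. For 16 members the call held in each of those fits, among them Ndufb3, Ndufb10, Sdhb, Sdhd, Cyc1, Uqcr10, Uqcrc1, Uqcrc2, Cox4i1, Cox5b, Cox8a, Atp5a1, Atp5b, Atp5g3 and Atp5o.

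Uqcr10, a small subunit of complex III, had the largest called difference. It stood at 83.1, 83.0 and 70.6 CPM in flox_BMM, 83.1, 88.2 and 93.6 CPM in KO_BMM, 104, 105 and 108 CPM in flox_OC and 96.4, 93.3 and 102 CPM in KO_OC, a difference of -0.28 (SE 0.072, adjusted p = 0.00567). With M-CSF alone no KO library lay below a flox library, and with RANKL all 3 lay below the flox libraries. Cyc1 (difference -0.21, SE 0.047, adjusted p = 0.000562) and Atp5b (-0.19, SE 0.038, adjusted p = 8.52e-05) were higher in KO_BMM, with no overlap. In KO_OC against flox_OC they stood at 219 to 221 CPM against 220 to 232 CPM and at 1182 to 1199 CPM against 1180 to 1213 CPM, which overlap.

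Ndufb3 had another pattern. Its CPM was 33.6, 33.6 and 33.8 in flox_BMM, 36.5, 35.3 and 34.4 in KO_BMM, 47.5, 44.3 and 47.5 in flox_OC and 38.6, 41.1 and 41.4 in KO_OC. The difference was -0.27 (SE 0.068, adjusted p = 0.00198), with KO against flox at 0.07 in BMM and -0.20 in OC. Ndufb10 gave -0.26, Uqcrc2 -0.22, Atp5o -0.22, Cox5b -0.21 and Cox8a -0.21. For Cox8a, RANKL gave 0.21 in flox and 0.00 in KO. For Ndufaf4 the difference was -0.25 (SE 0.093, adjusted p = 0.0487), and its call was lost in 7 of the 12 fits without 1 library and in DESeq2.

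**Figure D3:**
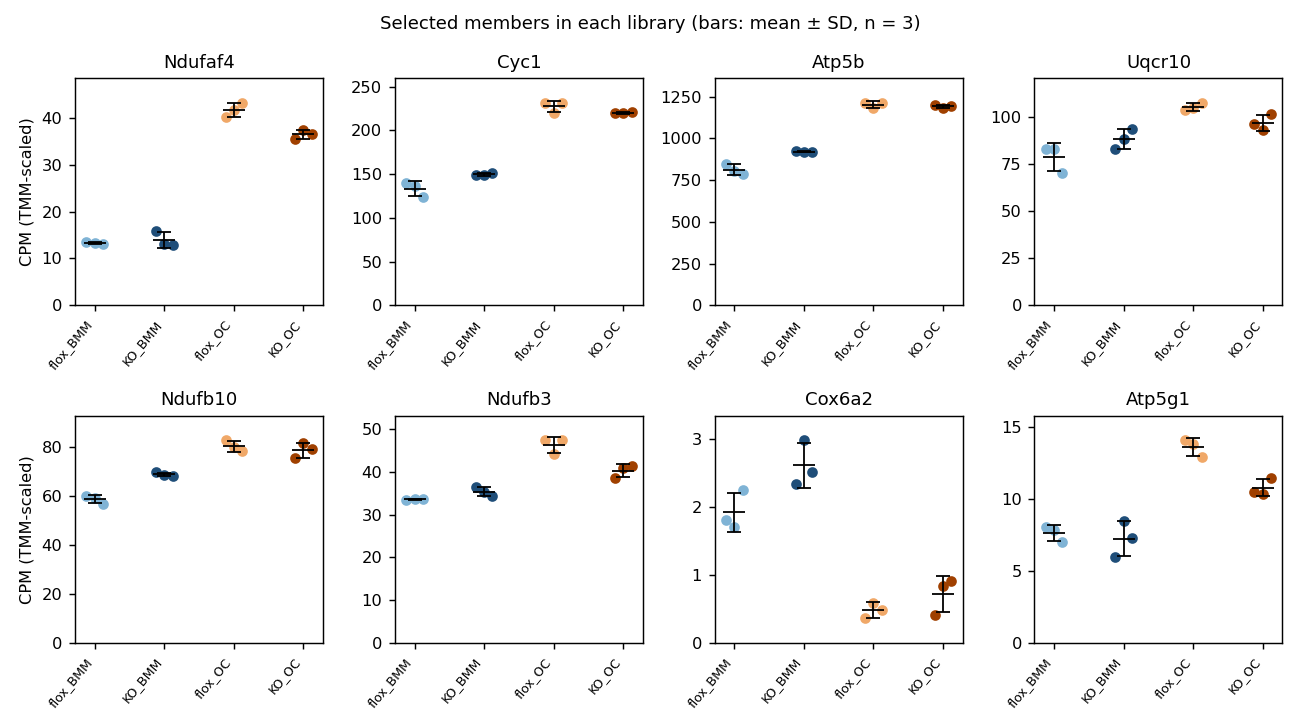
TMM-scaled CPM in each library of 8 members in the 4 groups, with mean ± SD (n = 3); each axis starts at 0. Cyc1 and Atp5b are higher in KO_BMM than in flox_BMM and meet in the OC groups, Ndufb3 is lower in KO_OC, and Cox6a2 stays below 3 CPM in every library.

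KO was next compared with flox within macrophages, with the same libraries that enter the difference of RANKL effects. In KO_BMM 35 of 89 members were higher and 1 lower, where 19.3% of all genes tested were higher and 20.6% lower (39.9% in either direction). The median was 0.10, and 0.00 over all genes. All 3 KO_BMM libraries lay above all 3 flox_BMM libraries for 45 members and below for 4 (23.3% of all genes in each direction). The call of 23 of the 35 held in each fit that left out 1 library. With library size alone 46 were higher.

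The share of members higher differed between the complexes, beside 19.3% of all genes tested. It was 11 of 44 in complex I (25%), 3 of 4 in complex II (75%) and 6 of 9 in complex III (66.7%). Complex IV had 6 of 15 (40%) and complex V 9 of 17 (52.9%). Within complex I, 5 of 7 core subunits were higher (71.4%). Of the 29 supernumerary subunits 6 were (20.7%), near the share of all genes. In complex IV 3 were higher without KO_BMM replicate 3. None of the 8 assembly factors passed in edgeR or DESeq2, and 0 had an unadjusted p under 0.05 in either. Ndufs8, a core iron-sulfur subunit, was higher by 0.25 (SE 0.039, adjusted p = 5.5e-07), with 88.8, 84.4 and 77.8 CPM in flox_BMM and 102, 96.6 and 100 CPM in KO_BMM. Ndufb10 was higher by 0.23, Ndufb11 by 0.24 and Ndufv1 by 0.19.

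In complex III, Uqcrc2 was higher by 0.21 (SE 0.036, adjusted p = 5.78e-06), with 111, 104 and 104 CPM against 128, 120 and 121 CPM in KO_BMM. Uqcrfs1 was higher by 0.20 and Cyc1 by 0.16. In complex II, Sdhd was higher by 0.17, Sdhb by 0.14 and Sdha by 0.11. In complex V, Atp5a1 was higher by 0.18 (SE 0.025, adjusted p = 6.8e-08), with 841, 820 and 812 CPM against 937, 928 and 939 CPM, as were Atp5b by 0.18 and Atp5o by 0.19, the last overlapping Donson. No library of the 2 groups overlapped for these 3 genes.

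Cox8a was higher by 0.17 and Cox4i1, the ubiquitous form of subunit 4, by 0.12. Cox6b2, known as a testis isoform, was higher by 0.64 in KO_BMM, but at 0.510 to 1.46 CPM against 1.5 to 1.74 CPM, and its call was lost in 5 of the fits that left out 1 library. Ndufa7 was the 1 member lower (-0.11, adjusted p = 0.0483), and its call was lost in 10 of those fits.

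In osteoclast cultures few members differed between genotypes. In KO_OC 4 members were higher and 14 lower, where 21.4% of all genes tested were higher and 19.9% lower (41.3% in either direction), and the median was -0.03 against 0.01 over all genes. Libraries did not overlap for 7 members higher (26.6% of all genes) and 21 lower (24.7%). The 14 became 8 in DESeq2 or without KO_OC replicate 3, and 9 without flox_OC replicate 3. The 4 became 1 in DESeq2 and 2 without flox_OC replicate 2 or KO_OC replicate 1. Both shares of members that passed, 4.49% higher and 15.7% lower, were below those of all genes.

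The 6 members whose lower call held in each fit without 1 library were Atp5g1, Ndufab1, Atp5e, Ndufb3, Ndufaf4 and Ndufa8. Atp5g1 stood at 14.1, 13.8 and 12.9 CPM in flox_OC and 10.5, 10.3 and 11.4 CPM in KO_OC (-0.34, SE 0.084, adjusted p = 0.000991). Ndufab1 gave -0.26, Atp5e, the epsilon subunit of the ATP synthase, -0.21, Ndufb3 -0.20, Ndufaf4 -0.19 and Ndufa8 -0.16. Of the 4 higher, Ndufaf7, a methyltransferase of the assembly pathway, was the 1 whose call held in each such fit, at 14.8, 14.9 and 16.5 CPM in flox_OC and 18.6, 17.5 and 17.9 CPM in KO_OC (0.22, SE 0.069, adjusted p = 0.00723). The others were Ndufs8 (0.11), Ndufs1 (0.10) and Cox6b2 (0.72, at or below 1.38 CPM), and Ndufs1, Ndufs8 and Cox6b2 were the 3 higher in both cultures. For Atp5g2 the value was -0.48 at 1.59 to 3.16 CPM, and this call was lost without flox_OC replicate 2 or KO_OC replicate 1 or 3.

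**Figure D4:**
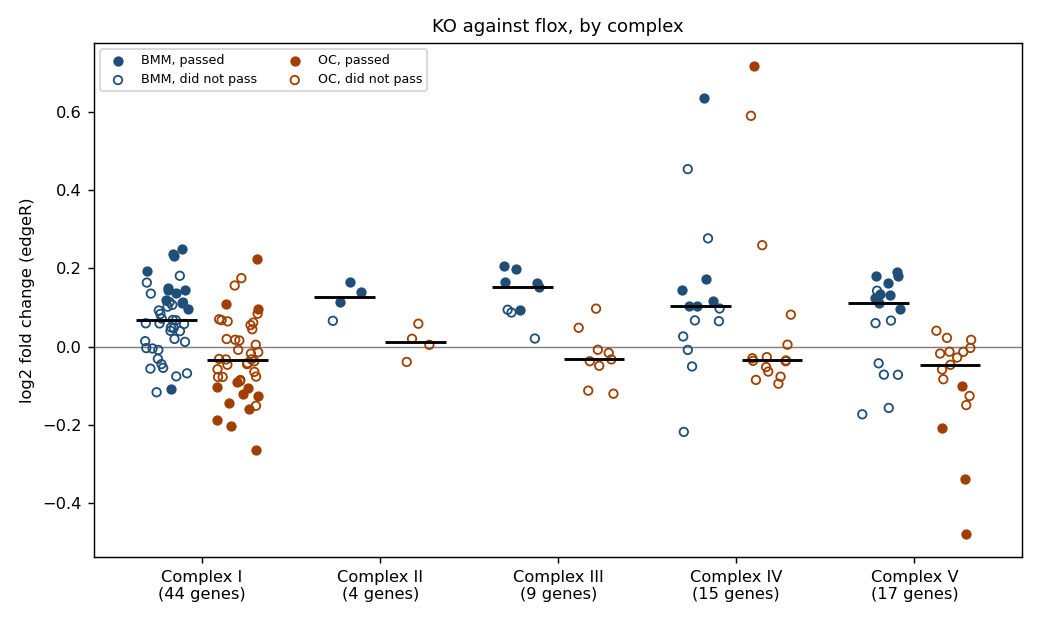
Log2 fold change of each tested member in KO against flox, by complex, in BMM (blue) and OC (brown); filled points passed the test and bars are medians. The BMM medians lie between 0.07 (complex I) and 0.15 (complex III), and the OC medians between -0.05 and 0.01.

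Other transcripts moved with genotype beside these results. The 28 cell-cycle genes summed to 5157 to 5220 CPM in flox_BMM, 6135 to 6211 CPM in KO_BMM, 6767 to 6826 CPM in flox_OC and 7170 to 7272 CPM in KO_OC, and 16 of them were higher and 7 lower in KO_BMM. For the difference of RANKL effects 18 of the 28 were lower in KO and 1 higher. Among all genes tested 19.3% were higher and 20.6% lower in KO_BMM, and 9.54% were lower and 12.3% higher in the difference. Markers of other cell types were lower in KO: 12 stromal and osteoblast markers summed to 174 to 191 CPM in flox_BMM and 54.8 to 61.9 CPM in KO_BMM, 5 megakaryocyte markers to 343 to 408 CPM and 48.0 to 52.1 CPM, and 8 neutrophil markers to 77.6 to 82.1 CPM and 25.9 to 27.9 CPM. In the OC groups the 3 sums were 147 to 151, 134 to 140 and 33.5 to 35.4 CPM in flox and 43.9 to 55.1, 15.2 to 16.2 and 10.1 to 11.9 CPM in KO. Their part in the members' differences was not tested. Muscle markers, from the tissue that gives Cox6a2 and Cox7a1 their name, summed to at most 1.64 CPM in any library, B cell markers to at most 1.65 CPM, T and NK cell markers to at most 4.94 CPM, erythroid markers to at most 0.401 CPM and brown adipocyte markers to at most 0.0963 CPM.

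In 12 of the 89 tested members none of the 5 comparisons passed: Ndufaf8, Ndufb2, Ndufb4, Ndufb7, Ndufb9, Ndufc1 and Ndufs5 in complex I, Cox6c and Cox7a2l (a protein known from respiratory supercomplexes) in complex IV, and Atp5h, Atp5l and Atp5s in complex V. The share of all genes tested that passed in none of the 5 was not computed. The log2 fold changes of these 12 members lay between -0.17 (Atp5s) and 0.21 (Ndufb4). The lowest adjusted p among them, from edgeR, was 0.0561, for Cox6c in KO_OC against flox_OC (-0.09, SE 0.040). Cox6c stood at 67.2 ± 2.39 CPM in flox_OC and 63.0 ± 1.44 CPM in KO_OC (SD, n = 3). Ndufb4, Ndufb9, Ndufs5, Cox7a2l, Atp5h and Atp5l are among the members with at least 10% of words shared with other genes.

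Summed over its members, each complex had its lowest level in flox_BMM. All 94 members summed to 7830, 7630 and 7475 CPM in flox_BMM, 8307, 8216 and 8340 CPM in KO_BMM, 9349, 9082 and 9317 CPM in flox_OC and 9101, 9061 and 9153 CPM in KO_OC. As a share of all counts, with no scaling, this was 0.708 to 0.728%, 0.788 to 0.801%, 0.958 to 0.985% and 0.959 to 0.962%. For every complex the 3 KO_BMM sums lay above the 3 flox_BMM sums. In OC the order varied with the complex. The complex I sums were lower in KO_OC (2382 to 2395 CPM) than in flox_OC (2407 to 2471 CPM), and those of complex II were higher (743 to 753 CPM against 731 to 739 CPM), with no overlap of libraries in either. In complexes III, IV and V the libraries of the 2 genotypes overlapped: complex III gave 1099 ± 25.4 CPM in flox_OC and 1077 ± 11 CPM in KO_OC (SD, n = 3), and complex V 3529 ± 54.6 CPM and 3489 ± 34.7 CPM.

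**Figure D5:**
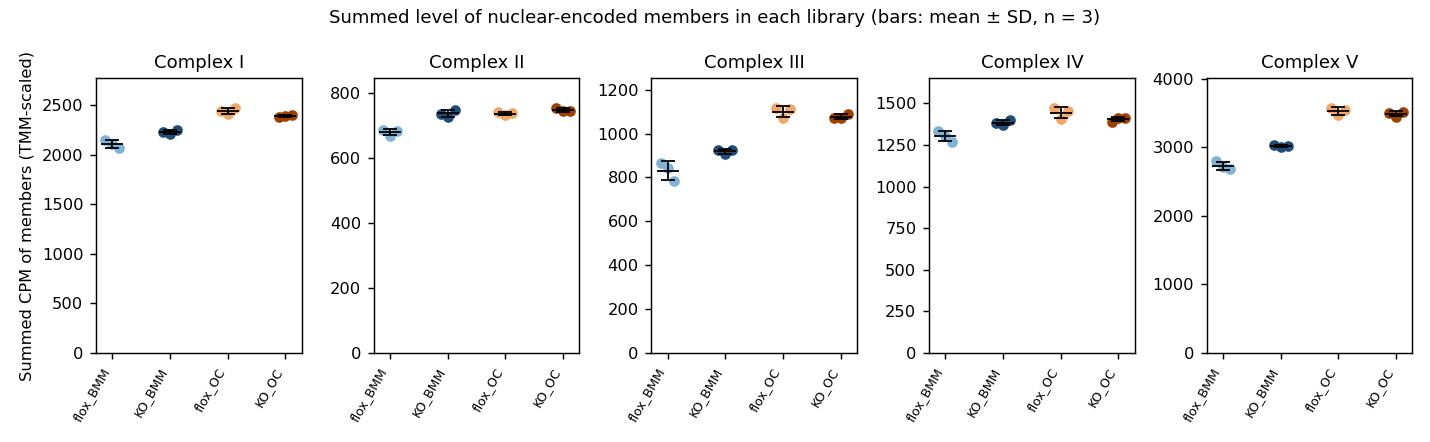
Summed TMM-scaled CPM of the members of each complex in every library, with mean ± SD (n = 3); each axis starts at 0. The flox_BMM libraries are lowest in each panel, at 830 ± 43.8 CPM for complex III, and the OC groups of both genotypes lie close together.

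The genes around the chain were described with lists of other assembly factors, the tricarboxylic acid (TCA) cycle, regulators of mitochondrial biogenesis and uncoupling. Of 20 TCA cycle and pyruvate dehydrogenase genes, 17 rose and 2 fell with RANKL in flox (median 0.43) and 16 rose and 4 fell in KO (0.34). Idh3a, a catalytic subunit of isocitrate dehydrogenase, rose most, from 71.7 ± 5.80 to 152 ± 2.45 CPM in flox (1.08, SE 0.04, adjusted p = 2.13e-29). In KO_BMM 14 of the 20 were higher and 0 lower (0 at an unadjusted p under 0.05 in edgeR and in DESeq2), and 9 had a lower RANKL effect in KO. Of 51 tested assembly factors and carriers outside the members, 39 rose and 2 fell with RANKL in flox (median 0.44) and 37 rose and 5 fell in KO (0.34), with Ecsit, a complex I assembly factor, at 1.15 in flox and 0.74 in KO. In KO_BMM 12 of the 51 were higher (23.5%), and 6 without flox_BMM replicate 3, where 19.3% of all genes tested were higher. With RANKL 37.0% of all genes tested rose and 37.8% fell in flox, and 35.5% rose and 35.0% fell in KO. For the difference of RANKL effects 9.54% of all genes tested were lower.

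Of 18 tested regulators, 12 rose in each genotype with RANKL, and 3 fell in flox and 2 in KO. Among all genes tested 37.0% rose and 37.8% fell in flox, and 35.5% rose and 35.0% fell in KO. Myc rose by 2.08 in flox and 1.85 in KO. Ppargc1b, a coactivator of mitochondrial genes, stood at 6.07 ± 0.933 CPM in flox_BMM, 6.81 ± 0.236 CPM in KO_BMM, 10.6 ± 0.671 CPM in flox_OC and 8.42 ± 0.695 CPM in KO_OC (SD, n = 3). Its RANKL effect was 0.80 in flox and 0.30 in KO, a difference of -0.50 (SE 0.15, adjusted p = 0.00856), and it was the 1 regulator whose difference passed. Of 11 tested genes of uncoupling and alternative electron entry, 8 rose and 1 fell with RANKL in flox (median 0.28). In KO 7 rose and 2 fell (0.21). In KO_BMM 5 of the 11 were higher and 1 lower (0.11), where 19.3% and 20.6% of all genes tested were. In KO_OC 1 was higher and 2 lower (-0.02), where 21.4% and 19.9% of all genes tested were. Against most of this list, Ucp2, an inner-membrane carrier abundant in macrophages, was lower in KO_BMM by 0.42 (1646 to 1844 CPM in flox against 1315 to 1337 CPM). In OC it was lower in KO by 0.37.

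By their medians, subunits encoded in mitochondrial DNA moved in the direction of the nuclear members for RANKL in KO cells, and in the opposite direction in the other comparisons. RNA was selected with oligo-dT, and the part of this selection in their counts was not tested. Of the 13 genes 7 were tested, while the other 6, among them mt-Nd3, mt-Nd4l, mt-Co2 and mt-Atp8 with no count in any library, had almost no counts. In KO cells all 7 rose with RANKL (median 0.42), and in flox cells 1, mt-Co1, fell (-0.27) and 0 rose, at an unadjusted p under 0.05 too, in edgeR and in DESeq2. The mt-Co1 call was lost with library size alone, with upper-quartile factors, without the filter on low counts, and without replicate 2 or 3 of flox_BMM or of flox_OC. The difference of RANKL effects was higher in KO for 5 of 7 (median 0.53), where 27 nuclear members were lower. For mt-Nd5 the levels were 1221 ± 105, 1033 ± 76.6, 1107 ± 49.7 and 1380 ± 105 CPM in flox_BMM, KO_BMM, flox_OC and KO_OC, a difference of 0.56 (SE 0.12, adjusted p = 0.00896). In BMM 3 of 7 were lower in KO. Among all genes tested 35.5% rose with RANKL in KO, 37.8% fell in flox, 12.3% were higher in the difference and 20.6% were lower in KO_BMM. The counts depended on single libraries: the 5 became 2 without the filter and in 8 of the 12 fits that left out 1 library (without replicate 2 or 3 of flox_BMM, flox_OC or KO_OC, or replicate 1 or 3 of KO_BMM). The 3 became 6 in DESeq2 and without flox_BMM replicate 1, 1 without flox_OC replicate 2 or KO_OC replicate 3, and 0 without KO_BMM replicate 1 or 3 or flox_BMM replicate 2 or 3, with library size alone, without the filter and with only the groups compared.

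The responses of members with and without an NRF1 string in the promoter window are given side by side, and their difference was not tested. With RANKL in flox the 19 with a string had a median of 0.23 (15 rose) and the 55 tested members without one 0.20 (40 rose and 4 fell), and in KO the medians were 0.13 (10 rose) and 0.12 (27 rose and 7 fell). In KO_BMM against flox_BMM the medians were 0.11 (9 higher) and 0.07 (18 higher and 1 lower). The medians of the difference of RANKL effects were -0.12 (6 lower) and -0.10 (15 lower). Among all genes tested 37.0% rose with RANKL in flox, 35.5% rose in KO, 19.3% were higher in KO_BMM and 9.54% were lower in the difference. No match says only that these letters are not in the window.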

How the data were processed

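RNA-seq libraries (12) were grouped by their titles. The authors deposited raw, unscaled read counts for each gene. Per the submitters' processing notes, STAR 2.0.4b and GRCm38 were used for alignment. Per the file headers, featureCounts 1.4.5-p1 counted exon reads by gene on Ensembl release 76 models and ignored strand. How reads that align to several places were treated is not given in the sources used here. RNA was selected with oligo-dT, per the labels.

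GENCODE M21 gave symbols for 40340 of 41388 identifiers, and the rest held 0.111% of counts. TPM was computed from the exonic lengths in the files. The main test was edgeR 4.0.16 (R 4.3.3, quasi-likelihood, TMM factors, default low-count filter by group, robust, 4 group means over the 12 libraries) on 13030 genes, with 5 contrasts and Benjamini-Hochberg adjustment over all genes. Genes with an adjusted p under 0.05 were called. The values of 1 member are not reported here, though it is in the counts. Each standard error is the size of the log2 fold change divided by the root of its F statistic. The script was tested on simulated data. No replicate pair agreed within sampling noise (chi-square per degree of freedom 1.25 to 5.43 within groups). The limit that a count of 0 allows (3 counts) covers counting error only.

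Named members were the complex II subunits and Cyc1, up to 3 called members per complex class and contrast with the largest change and at least 5 CPM, paralog sets, the highest level of each complex and members called against the main direction, and up to 3 called genes per other list. Other names were chosen after their values were seen, and so were Ndufaf5 and Ndufaf2 in some contrasts. The members and lists were chosen with earlier results of these data known. Alternatives were other scaling factors, DESeq2 1.42.0, no filter, fits of only the groups compared, a replicate block, leaving out each library, and, chosen after seeing the data, leaving out members with shared words or exon overlap.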

Additional observations from a re-analysis of the deposited data

Results flagged for a closer look

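By the interaction test in edgeR (KO minus flox, adjusted p under 0.05), the effect of RANKL differed between genotypes for 27 members. All had a lower log2 fold change with RANKL in KO than in flox. Among all genes tested 9.54% were lower and 12.3% higher. Of the 27 members, 22 were also called higher in KO_BMM than in flox_BMM, and 5 were called lower in KO_OC than in flox_OC. These comparisons share libraries with the interaction test. In complex I the 27 members included Ndufb3 (-0.27), Ndufb10 (-0.26), Ndufs4 (-0.26), Ndufaf4 (-0.25), Ndufb11 (-0.19), Ndufb5 (-0.19), Ndufv1 (-0.14) and Ndufv2 (-0.13). In complex II these were Sdhb (-0.18) and Sdhd (-0.16). Complex III gave Uqcr10 (-0.28), Uqcrc2 (-0.22), Cyc1 (-0.21), Uqcrc1 (-0.16) and Uqcrfs1 (-0.15). Complex IV gave Cox5b (-0.21), Cox8a (-0.21), Cox4i1 (-0.15), Cox5a (-0.14) and Cox6a1 (-0.14), and complex V Atp5o (-0.22), Atp5b (-0.19), Atp5g3 (-0.18), Atp5mpl (-0.18), Atp5a1 (-0.16) and Atp5d (-0.16).

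Not all of these calls held when 1 library was left out. Those of Ndufv1 and Atp5mpl were lost in 9 of the 12 such fits, Ndufv2 in 8, Ndufaf4, Cox5a and Cox6a1 in 7, Ndufb5 in 6 and Uqcrfs1 in 5. The Ndufb11 call was lost without KO_BMM replicate 3 or flox_OC replicate 1, that of Ndufs4 without KO_BMM replicate 3 and that of Atp5d without flox_OC replicate 1.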

How the results depend on the processing

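With library size alone in place of TMM factors, the median of all genes was 0.16 (RANKL in flox) and 0.14 (RANKL in KO). The share of calls that were higher moved from 48.3% to 59.9% (KO in BMM), 49.5% to 62.8% (RANKL in flox), 50.4% to 63.5% (RANKL in KO) and 56.4% to 43.3% (difference). The members' medians became 0.13 (KO in BMM), 0.38 and 0.25 (RANKL in flox and KO) and -0.15 (difference); 73 rose and 3 fell with RANKL in KO, 1 fell in flox, 41 were lower in the difference and 0 were lower in KO_BMM. The log2 ratios of the summed levels of complexes I to V became 0.38, 0.29, 0.58, 0.32 and 0.54 (RANKL in flox) and 0.24, 0.16, 0.36, 0.16 and 0.34 (RANKL in KO), and 0.12, 0.15, 0.12 and 0.18 for complexes I, II, IV and V (KO in BMM). In TPM they were 0.36, 0.35, 0.59, 0.33 and 0.49 (RANKL in flox), 0.21, 0.20, 0.38, 0.17 and 0.30 (RANKL in KO) and 0.12, 0.17 and 0.14 for complexes I, II and IV (KO in BMM). Over all 89 tested members, library size alone changed the sign of 14 (RANKL in KO), 7 (RANKL in flox), 5 (KO in BMM), 4 (difference) and 0 (KO in OC), none of them called under both scalings. Among the 56 tested members that the naming rule selects, those that changed sign and were called under one scaling, in each case library size alone against TMM, were Cox4i1 (0.087), Cox5b (0.12), Cox6a1 (0.074), Ndufa3 (0.025), Sdha (0.13) and Sdhb (0.044) for RANKL in KO, and Ndufa13 (0.020) and Ndufa3 (0.12) for RANKL in flox. The 1 member lower in KO_BMM was lost in DESeq2, without the filter, with the replicate block and with only the groups compared (0 in each). DESeq2 gave 1 higher and 8 lower in OC, and 18 lower in the difference. The median for RANKL in KO was 0.14 with upper-quartile factors and 0.092 without the filter, which tested 91 members. Without members of shared or overlapping sequence, 3 fell with RANKL in flox and 5 in KO. The cause of these moves was not tested.

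Leaving out 1 library gave 26 to 40 members higher and 0 to 1 lower (KO in BMM), 2 to 4 and 8 to 19 (KO in OC), 60 to 70 and 4 to 5 (RANKL in flox), 37 to 46 and 6 to 10 (RANKL in KO), and 0 and 19 to 43 (difference), with medians of 0.08 to 0.12, -0.04 to -0.03, 0.19 to 0.23, 0.10 to 0.12 and -0.15 to -0.11. Same-numbered libraries of different groups correlated between -0.07 and 0.09 in their deviations from their group means. Such deviations may be technical, so these values cannot show whether the numbers pair animals or batches. The replicate block gave 36 higher and 0 lower (KO in BMM), 4 and 13 (KO in OC), 65 and 5 (RANKL in flox), 44 and 8 (RANKL in KO) and 0 and 23 (difference). Over 5264 values of these 56 genes under alternatives, 4955 kept direction and side of the threshold, 213 lost the call, 88 gained it and 8 reversed. Counts at this depth limit Cox6b2, Cox6a2, Cox7a1 and Atp5g2, which lay under 4 CPM.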
